A study of Homo sapiens with 6 samples.

Results

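The genes described here are 9 members of the Eph receptor and ephrin family: the receptor genes EPHA2, EPHA4, EPHB2, EPHB3 and EPHB4 and the ligand genes EFNA1, EFNA5, EFNB1 and EFNB2. They were taken by symbol from the 23228 genes in the count tables, and all 9 passed the low-count filter that left 13606 genes for testing. Polyadenylated RNA was read in 3 libraries labelled SCUBE3 knockdown and 3 labelled scramble, all from MDA-MB-231, a human breast tumour line classed as negative for hormone receptors that has a mesenchymal shape. Per the labels, cells of both groups received lentivirus and were kept under puromycin for a week. The lentivirus carried a short hairpin RNA (shRNA) against SCUBE3, a secreted protein with EGF-like domains, or a scrambled shRNA. How many hairpins were used is not stated in the labels, nor is the origin of the replicates in separate cultures. The p-values therefore weigh differences against variation among these libraries alone, and that variation may be technical.

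Eph receptors form the largest group of receptor tyrosine kinases, and their ligands, the ephrins, sit on the membrane of the neighbouring cell. A-class receptors mostly bind the ephrin-A proteins, which are held by a lipid (GPI) anchor, and B-class receptors mostly bind the ephrin-B proteins, which span the membrane. EPHA4 and EPHB2 are known to cross between the classes. Contact signals both ways, forward into the cell with the receptor and in reverse into the cell with the ephrin, and acts on cell repulsion, adhesion and movement. In breast cancer EPHA2 is known as a receptor that is often abundant and can signal without ligand, and in blood vessels EPHB4 marks veins and EFNB2 arteries.

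Library totals ran from 21348509 to 25520901 reads in genes. The targeted gene itself did not follow its label: SCUBE3 had 99, 107 and 101 reads in libraries labelled knockdown and 96, 91 and 80 in scramble libraries, and its log2 fold change was 0.03 ± 0.14 (SE; adjusted p = 0.871 by edgeR's quasi-likelihood test with Benjamini-Hochberg adjustment). An exact two-sided permutation test on SCUBE3 CPM gave p = 0.5 (3 libraries in each group), and 0.1 is the lowest p that this design can reach. The SCUBE3 counts thus do not bear out the knockdown label. Whether the labels match the cells was not tested, so each fold change below is a difference between labelled groups and cannot be read as an effect of SCUBE3 loss. Across all genes tested, 85.9% passed an adjusted p of 0.05. Genes higher in libraries labelled knockdown made up 43.4% of those tested and lower ones 42.5%, with a median log2 fold change of 0.01. Markers of the line were present in both groups. VIM, CD44, AXL, MSN, CAV1, EGFR, ZEB1 and SNAI2 summed to 6889.7 to 6998 CPM in libraries labelled knockdown. In scramble libraries their sum was 9309 to 9721 CPM. CPM are read counts per 1000000 reads in genes. All 8 passed the test, beside 85.9% of all genes tested, and they moved both ways. CD44, CAV1 and SNAI2 were higher in libraries labelled knockdown, and VIM, AXL, MSN, EGFR and ZEB1 were lower. CDKN2B and MTAP, which lie in a region deleted in MDA-MB-231, had 0 reads in all 6 libraries, and CDKN2A had 0 reads in libraries labelled knockdown and 1 in scramble libraries. Of 10 genes listed as low or lost in the line, 6 were tested, of which 2 were higher (CDH1 and GATA3), 3 lower (FOXA1, PGR and ERBB3) and EPCAM did not pass the test. FOXA1, a luminal factor, had 0.0542 ± 0.0245 CPM in libraries labelled knockdown and 21.4 ± 1.58 CPM in scramble libraries (SD, n = 3), and the E-cadherin gene CDH1 had 152 reads over the libraries labelled knockdown and 3 over the scramble libraries. The progesterone receptor gene PGR had 0 reads in libraries labelled knockdown and 25, 18 and 23 in scramble libraries. With 3 reads over the group set in place of 0, PGR was 24.0-fold lower. The oestrogen receptor gene ESR1 had 0 and 8 reads in all. GATA3 had 15.8 CPM in libraries labelled knockdown and 5.81 CPM in scramble libraries, and ERBB3 had 5.97 and 12 CPM. The part of these differences in the results that follow was not tested.

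Of the 9 genes, 5 rose in libraries labelled knockdown (EPHA2, EPHB2, EPHB3, EPHB4 and EFNB2), 3 fell (EFNA1, EFNA5 and EFNB1) and EPHA4 did not pass the test. That is 8 of 9, or 88.9%, against 85.9% of all genes tested, so the number of genes that passed was close to the background. Their median log2 fold change was 0.57, and 4 of them (EPHB2, EPHB3, EPHB4 and EFNB1) had a log2 fold change beyond 1 in either direction, as did 31.2% of all genes tested. The 3 libraries of one group did not overlap with those of the other for 7 of the 9, the exceptions being EPHA4 and EFNA1, and this held for 85.9% of all genes tested. In bulk RNA, fewer cells with a transcript and less of it per cell cannot be told apart.

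**Figure D1:**
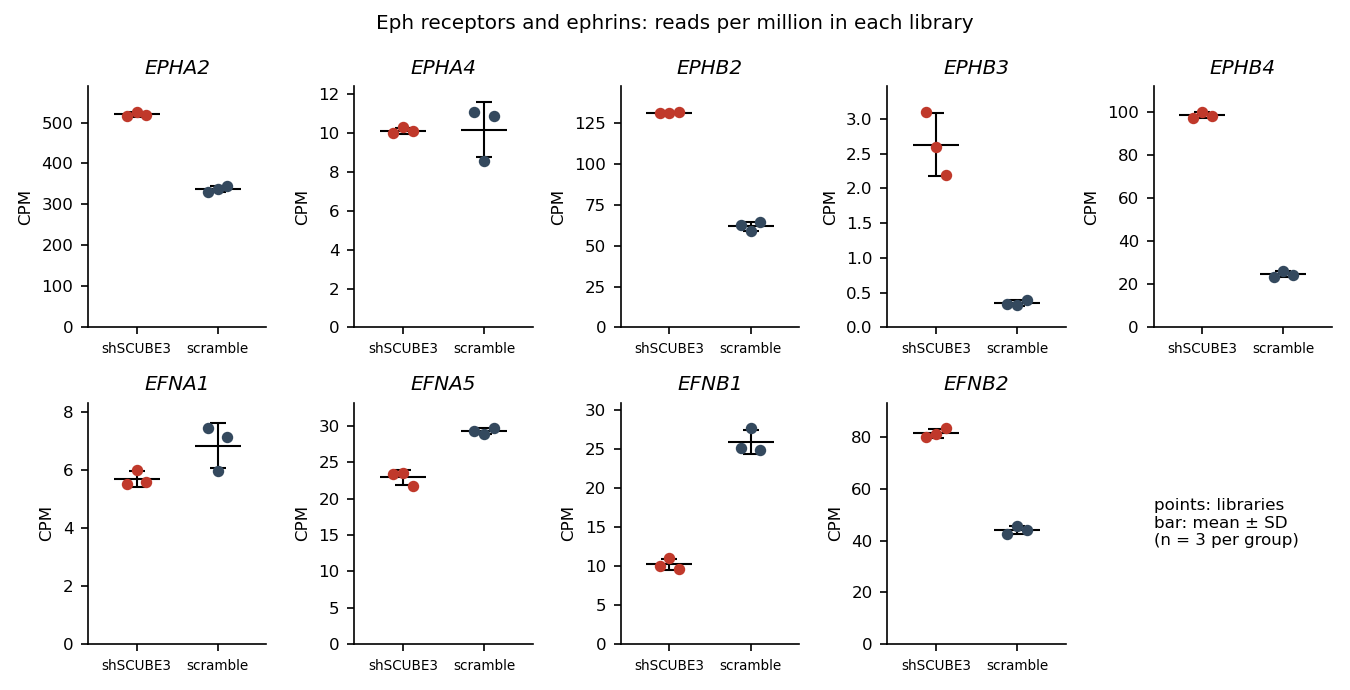
Read counts per 1000000 reads in genes (CPM) of the 9 genes in each library, on linear axes that start at 0; points are libraries, the horizontal line is the group mean and the whiskers its SD (n = 3 per group). EPHA2, EPHB2, EPHB3, EPHB4 and EFNB2 lie higher in every library labelled knockdown, EFNA5 and EFNB1 lower, and EPHA4 and EFNA1 overlap.

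Of the 5 receptor genes, the 3 of the B class had the highest fold changes. EPHB4, the receptor for ephrin-B2, had 97.4, 100.2 and 98.4 CPM in libraries labelled knockdown, against 23.6, 26.2 and 24.4 CPM in scramble libraries. The groups lay far apart, and the lowest library labelled knockdown was above 90 CPM while no scramble library reached 30. Its log2 fold change came to 1.95 ± 0.05 (edgeR adjusted p = 2.31e-30), a 3.85-fold difference with a 95% interval of 3.59 to 4.14. A change larger in size was seen in 12% of all genes tested.

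EPHB2, a receptor that binds ephrin-B ligands and also ephrin-A5, had 131, 131 and 132 CPM in libraries labelled knockdown, against 62.5, 58.9 and 64.5 CPM in scramble libraries. The libraries labelled knockdown were nearly identical, with a coefficient of variation of 0.258%, and all of them were higher than each scramble library. The log2 fold change was 1.03 ± 0.04 (edgeR adjusted p = 3.44e-24), or 2.05-fold with an interval of 1.93 to 2.17.

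EPHB3, known with EPHB2 for placing cells in the intestinal crypt, was the most weakly read of the 9 genes and the one with the highest fold change. It had 76, 66 and 53 reads in libraries labelled knockdown and 8, 7 and 9 reads in scramble libraries, or 2.62 ± 0.460 and 0.352 ± 0.0403 CPM (SD, n = 3). The groups did not overlap. The log2 fold change of 2.83 ± 0.28 (edgeR adjusted p = 8.00e-12) was 7.10-fold, and its interval of 4.78 to 10.6 was the widest of the 9, with 24 reads in all behind the scramble value.

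Of the A-class receptors, EPHA2 rose and EPHA4 did not pass the test. EPHA2 had 515, 526 and 519 CPM in libraries labelled knockdown, against 329.9, 337 and 344 CPM in scramble libraries, and every library labelled knockdown was higher. With a log2 fold change of 0.57 ± 0.03 (edgeR adjusted p = 8.70e-21) it rose 1.49-fold (95% interval 1.43 to 1.55), and 54.1% of all genes tested changed by more. Set against a 1.5-fold change in place of none, it did not pass (edgeR glmTreat adjusted p = 0.660); by that test 5 of the 9 genes passed, beside 45.9% of all genes tested.

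EPHA4, known as a receptor for ephrins of both classes, had 10.0, 10.3 and 10.1 CPM in libraries labelled knockdown, against 11.1, 8.57 and 10.9 CPM in scramble libraries. The libraries labelled knockdown fell inside the range of the scramble libraries, in which replicate 2 was the lowest. The log2 fold change was -0.07 ± 0.10 with a 95% interval of -0.27 to 0.13 (edgeR adjusted p = 0.533). The interval leaves room for a drop to 0.832-fold or a gain to 1.10-fold.

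The 2 ephrin-B ligands moved in opposite directions. EFNB2, the ligand paired with EPHB4 in vessels, had 80.0, 81.3 and 83.5 CPM in libraries labelled knockdown, against 42.7, 45.5 and 44.2 CPM in scramble libraries, with a log2 fold change of 0.84 ± 0.05 (edgeR adjusted p = 2.51e-19) or 1.79-fold. EFNB1, the X-linked ephrin-B gene, had 10.0, 11 and 9.69 CPM in libraries labelled knockdown, against 25.2, 27.7 and 24.9 CPM in scramble libraries. Neither gene overlapped between the groups, and EFNB1 was lower in every library labelled knockdown. Its log2 fold change was -1.39 ± 0.08 (edgeR adjusted p = 2.06e-19), or 0.381-fold with an interval of 0.342 to 0.425, the largest drop among the 9 genes.

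The balance of the pair can be read within each library, where scaling plays no part. There were 7.96, 7.41 and 8.62 EFNB2 reads for each EFNB1 read in libraries labelled knockdown, against 1.69, 1.64 and 1.77 in scramble libraries. Both transcripts were read in all 6 libraries, and EFNB2 gave more reads than EFNB1 in each of them. EFNB2 made up 67.7% ± 1.35 of the reads of the 4 ephrin genes in libraries labelled knockdown and 41.5% ± 0.661 in scramble libraries, and EFNB1 made up 8.49% ± 0.487 and 24.4% ± 1.10 (SD, n = 3).

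Both ephrin-A ligands fell, by less than the ephrin-B1 gene. EFNA5, which is known to guide axons and can also bind EPHB2, had 23.4, 23.6 and 21.8 CPM in libraries labelled knockdown, against 29.3, 28.9 and 29.7 CPM in scramble libraries. The groups did not overlap, and the log2 fold change was -0.40 ± 0.06 (edgeR adjusted p = 2.16e-07), or 0.756-fold. EFNA1, a preferred ligand of EPHA2 that was first found as a gene induced by tumour necrosis factor, had 5.51, 6.0 and 5.57 CPM in libraries labelled knockdown, against 7.43, 5.95 and 7.13 CPM in scramble libraries. Here scramble replicate 2 lay among the libraries labelled knockdown. The log2 fold change was -0.32 ± 0.12 (edgeR adjusted p = 0.0137), and the call was lost without scramble replicate 1 (log2 fold change -0.26, adjusted p = 0.0684).

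Receptor and ligand transcripts together shifted towards receptors and towards the B class. The 5 receptor genes summed to 757, 770.1 and 762 CPM in libraries labelled knockdown and to 427, 431 and 444 CPM in scramble libraries, while the 4 ephrin genes summed to 119, 122 and 121 CPM and to 105, 108 and 106 CPM. Receptor reads per ephrin read were 6.33 ± 0.0276 in libraries labelled knockdown and 4.09 ± 0.103 in scramble libraries (SD, n = 3). These sums were given no test.

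EPHA2 held the greater part of the receptor reads in every library. Its share of the reads of the 5 receptors was 68.1% ± 0.114 in libraries labelled knockdown and 77.6% ± 0.523 in scramble libraries, and the B-class share was 30.5% ± 0.125 and 20.1% ± 0.200 (SD, n = 3). Among the ephrins, the A-class share was 23.8% ± 0.926 in libraries labelled knockdown and 34.0% ± 1.55 in scramble libraries. For cognate pairs, EPHB4 reads per EFNB2 read were 1.22, 1.23 and 1.18 in libraries labelled knockdown and 0.553, 0.576 and 0.552 in scramble libraries, so EPHB4 gave the greater number of reads in one group and EFNB2 in the other. EPHA2 reads per EFNA1 read were 93.5, 87.7 and 93.2 in libraries labelled knockdown and 44.4, 56.6 and 48.2 in scramble libraries. Reads are not scaled for transcript length in these shares and ratios, so they show how the mix differs between groups, not how many molecules of each there were.

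**Figure D2:**
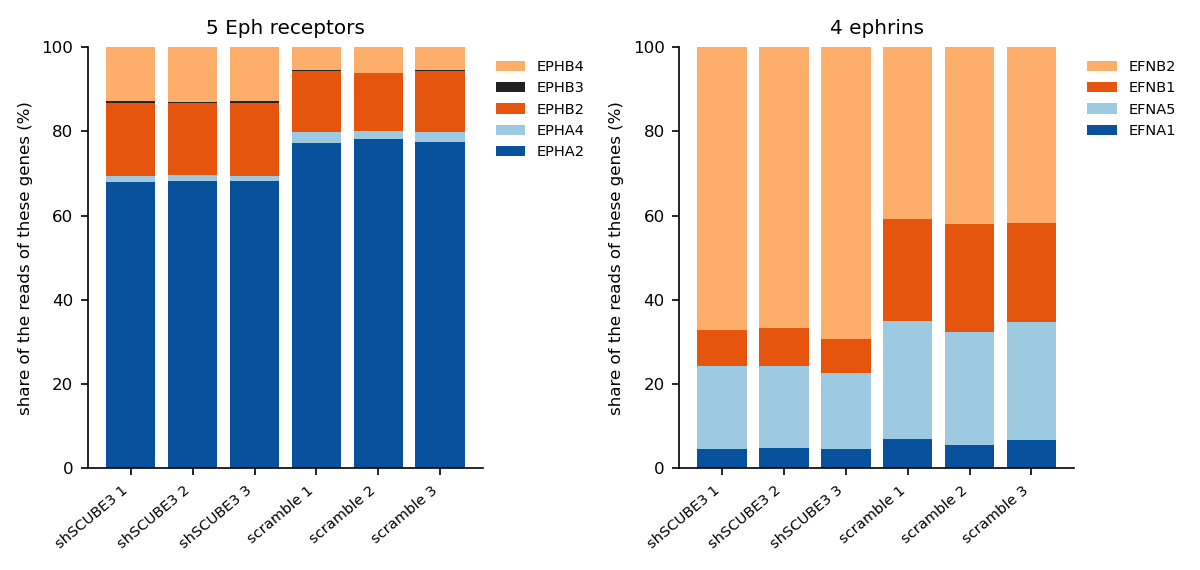
Share of reads (%) that each gene takes among the 5 receptor genes (left) and the 4 ephrin genes (right), 1 bar per library, without scaling for transcript length. The B-class share of receptor reads is 30.4 to 30.6% in libraries labelled knockdown and 19.8 to 20.2% in scramble libraries, and EFNB2 takes 66.7 to 69.3% and 40.8 to 42.1% of ephrin reads.

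Levels of different genes were compared per kilobase of exon (all annotated exons of the gene joined). EPHA2 was highest in both groups, at 131 ± 1.36 CPM per kb in libraries labelled knockdown and 85.0 ± 1.76 CPM per kb in scramble libraries (SD, n = 3). In libraries labelled knockdown it was followed by EPHB4 at 22.7 ± 0.324, EFNB2 at 16.3 ± 0.361 and EPHB2 at 10.9 ± 0.0280 CPM per kb. In scramble libraries the next were EFNB2 at 8.81 ± 0.286, EFNB1 at 7.83 ± 0.468, EPHB4 at 5.68 ± 0.311 and EFNA5 at 5.49 ± 0.0736 CPM per kb.

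By this exon measure EPHB4 was thus at rank 2 of the 9 in libraries labelled knockdown and rank 4 in scramble libraries, and EFNB1 was at rank 6 in libraries labelled knockdown and rank 3 in scramble libraries. Libraries of neighbours in the order overlapped for EFNB1 and EFNA1 in libraries labelled knockdown, and for EPHB4 and EFNA5 in scramble libraries. EPHA4, at 1.53 ± 0.0266 CPM per kb in libraries labelled knockdown and 1.54 ± 0.216 in scramble libraries, and EPHB3, at 0.620 ± 0.109 and 0.0832 ± 0.00951, were the lowest. Per kilobase of the longest coding sequence, EPHA2 was still at rank 1 and EFNB2 at rank 2 in both groups, but EPHB4 was at rank 5 in libraries labelled knockdown and rank 7 in scramble libraries, so the middle of the order depends on the length used.

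The promoters of EPHB4 and EPHB3, 2 receptor genes that rose, and of EFNB2 and EFNB1, the ligand pair that parted, are shown so that they can be compared. Each line gives 250 bases before the RefSeq start (GRCh38.p14), 5′ to 3′ on the gene's strand, with capitals marking the motifs searched on both strands.
EPHB4 promoter (chr7:100827524-100827773, minus strand): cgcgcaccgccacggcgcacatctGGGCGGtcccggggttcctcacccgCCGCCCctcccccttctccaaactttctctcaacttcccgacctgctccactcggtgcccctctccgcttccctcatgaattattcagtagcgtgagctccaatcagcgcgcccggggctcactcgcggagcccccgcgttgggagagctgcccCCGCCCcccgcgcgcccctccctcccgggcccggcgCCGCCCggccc
EPHB3 promoter (chr3:184561535-184561784, plus strand): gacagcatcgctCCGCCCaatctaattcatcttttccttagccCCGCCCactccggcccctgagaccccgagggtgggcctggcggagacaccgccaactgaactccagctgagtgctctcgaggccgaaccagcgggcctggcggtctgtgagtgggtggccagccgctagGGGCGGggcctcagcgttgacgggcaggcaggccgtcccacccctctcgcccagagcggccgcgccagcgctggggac
EFNB2 promoter (chr13:106535663-106535912, minus strand): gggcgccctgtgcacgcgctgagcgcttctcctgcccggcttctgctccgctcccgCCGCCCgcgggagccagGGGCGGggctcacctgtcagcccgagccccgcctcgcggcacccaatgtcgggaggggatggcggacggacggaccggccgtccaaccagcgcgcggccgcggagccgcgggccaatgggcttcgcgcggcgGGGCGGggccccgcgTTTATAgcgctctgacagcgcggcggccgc
EFNB1 promoter (chrX:68828771-68829020, plus strand): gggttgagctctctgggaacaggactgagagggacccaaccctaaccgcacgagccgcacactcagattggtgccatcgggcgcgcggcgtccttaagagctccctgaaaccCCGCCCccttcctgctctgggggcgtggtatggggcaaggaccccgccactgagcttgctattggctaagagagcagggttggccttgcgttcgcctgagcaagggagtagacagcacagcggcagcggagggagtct

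All 9 genes matched a RefSeq promoter, and all 9 held a GC box (GGGCGG), as did 42.6% of 35116 promoters of the same length. That share is per promoter and was not matched for GC content, and EPHA4 and EPHB2 had more than 1 promoter. The box stood upstream of genes that rose and of genes that fell: EPHB4 had 4 copies, EPHB3 and EFNB2 had 3 each and EFNB1 had 1. EFNB2 also held the letters of a TATA box (TATAAA on either strand, in 10.7% of promoters) and EPHA2 those of a cAMP response element (TGACGTCA, in 1.65%). None of the 9 held an AP-1 motif (TGANTCA, 6.57% of promoters), an E box (CACGTG, 6.34%), a TCF/LEF motif (CTTTGAT, 2.26%) or a hypoxia element core (ACGTGC, 5.83%) in this window. GC content of the printed promoters was 72.8% for EPHB4, 70.0% for EPHB3, 78.4% for EFNB2 and 63.6% for EFNB1, with a median of 58.0% over all promoters. Which start these cells used was not measured.

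The rest of the family was read at low levels, as were EFNA1 and EPHB3 among the 9, and what was read differed widely between groups. EFNA4 averaged 6.93 CPM in libraries labelled knockdown, above EFNA1 at 5.69 and EPHB3 at 2.62 CPM. In scramble libraries EFNB3 at 6.76 and EFNA3 at 5.98 CPM lay below EFNA1 at 6.84 CPM and above EPHB3 at 0.352 CPM. Of 13 other members, 8 were tested, and all 8 passed (edgeR adjusted p under 0.05), 4 higher and 4 lower in libraries labelled knockdown, where 85.9% of all genes tested passed. Each of the 8 also had a log2 fold change beyond 1 in either direction, as did 31.2% of all genes tested. A weakly read gene can enter the test through the group where it is high, so these counts describe the genes that passed the filter and nothing about the family as a whole.

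Among the other ephrins, EFNB3, the remaining ephrin-B gene, fell together with EFNB1, and the ephrin-A genes parted. EFNB3 had 35, 31 and 32 reads in libraries labelled knockdown, against 167, 159 and 134 reads in scramble libraries (log2 fold change -2.40 ± 0.16, edgeR adjusted p = 1.40e-16). EFNA3 had 39, 40 and 45 reads against 136, 111 and 161 (-1.89 ± 0.17, edgeR adjusted p = 2.28e-13), and EFNA4, its neighbour gene, had 180, 162 and 172 reads against 48, 67 and 66 (1.33 ± 0.15, edgeR adjusted p = 1.40e-10). No library overlapped between groups for these 3 genes. Summed over the group, EFNA2 had 11 reads in libraries labelled knockdown and 2 in scramble libraries, a ratio of 5.05 (95% counting interval 1.10 to 46.9).

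The remaining receptors split in the same way. EPHA6 had 3, 0 and 1 reads in libraries labelled knockdown, against 25, 27 and 38 in scramble libraries (log2 fold change -4.54 ± 0.51, edgeR adjusted p = 1.85e-10). Its log2 fold change was -5.75 without shSCUBE3 replicate 1 and -3.97 without shSCUBE3 replicate 2. EPHA7 had 2, 1 and 2 reads against 27, 24 and 29 (-4.07 ± 0.47, edgeR adjusted p = 3.08e-10). EPHA6 and EPHA7 are best known from the nervous system, and both averaged under 2 CPM in either group.

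EPHA5, EPHA10 and EPHB6 went the other way. EPHA5 had 33, 24 and 29 reads in libraries labelled knockdown and 7, 9 and 8 in scramble libraries (log2 fold change 1.65 ± 0.34, edgeR adjusted p = 2.64e-05). EPHA10, which lacks a working kinase, had 38, 37 and 31 reads against 10, 10 and 14 (1.46 ± 0.29, edgeR adjusted p = 2.33e-05). EPHB6, also without kinase activity, had 40 reads in all in libraries labelled knockdown and 1 in scramble libraries, a ratio of 36.7 with a 95% counting interval of 6.22 to 1486. The single scramble read lay in replicate 1, and without that library EPHB6 had 0 reads in scramble libraries.

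EPHA1 had 0 reads in libraries labelled knockdown and 21 in scramble libraries. With 3 reads over the group set in place of 0, EPHA1 was 7.63-fold lower. EPHB1 had 7 reads in libraries labelled knockdown and 0 in scramble libraries, 2.14-fold higher on the same basis. EPHA3 had 0 reads in libraries labelled knockdown and 1 in scramble libraries, and EPHA8 had 0 in all 6, which allows up to 0.0404 CPM in libraries labelled knockdown and 0.0440 CPM in scramble libraries. These 4 receptors and EFNA2 were below the filter and had no test.

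**Figure D3:**
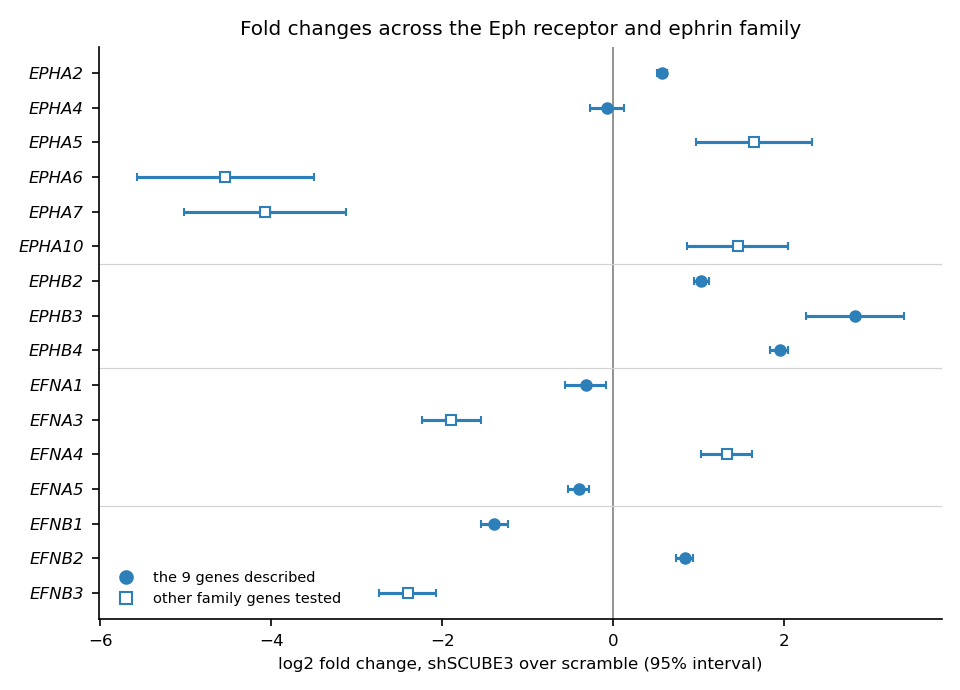
Log2 fold changes of shSCUBE3 over scramble libraries with 95% intervals from edgeR for 16 tested family genes, in rows for A-class receptors, B-class receptors, ephrin-A and ephrin-B genes; filled circles are the 9 genes described and open squares other family genes, and EPHB6, with 1 read in scramble libraries, is left out. EPHB2, EPHB3 and EPHB4 lie right of 0, EPHA4 spans it, and of the ephrin-B genes EFNB2 lies right and EFNB1 and EFNB3 left.

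Genes that carry or cut the Eph and ephrin signal were followed in 3 lists of 51 genes. Of 45 tested, 26 rose, 14 fell and 5 did not pass the test (88.9% past it, against 85.9% of all genes tested), with a median log2 fold change of 0.24. Median log2 fold changes by list were -0.06 for receptor-side adaptors and enzymes, 0.31 for ephrin-B reverse signalling partners and 0.73 for cleavage proteases, beside 0.01 for all genes tested.

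Of 11 tested cleavage proteases, 9 rose, 0 fell, and 2 did not pass the test, among them ADAM17 (log2 fold change -0.09, edgeR adjusted p = 0.0580). That is 81.8% past the threshold, against 85.9% of all genes tested, of which 43.4% were higher and 42.5% lower. The count past the threshold was 10 with scaling by library totals, without the low-count filter, with limma-voom and with the replicate number as a block. The count was also 10 without scramble replicate 1 and without shSCUBE3 replicate 3. It was 6 of 11 against a 1.5-fold change, beside 45.9% of all genes tested. MMP14, a membrane metalloprotease known to cut EPHA2, had 765 ± 15.4 CPM in libraries labelled knockdown and 218 ± 2.98 CPM in scramble libraries (SD, n = 3; log2 fold change 1.76 ± 0.03, SE). ADAM10, the sheddase known to cut ephrins once they are bound by Eph receptors, had 211 ± 10.6 and 92.7 ± 2.70 CPM (1.14 ± 0.04). The gamma-secretase subunit genes APH1A (0.73 ± 0.04) and PSEN2 (0.97 ± 0.06) rose as well.

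Of 11 tested ephrin-B reverse signalling partners, 7 rose, 3 fell and DVL3 did not pass. Past the threshold were 90.9%, against 85.9% of all genes tested, of which 43.4% were higher and 42.5% lower. SDCBP, which encodes syntenin, a PDZ protein that binds the tail of ephrin-B ligands, had 269 ± 1.81 CPM in libraries labelled knockdown and 125 ± 4.78 CPM in scramble libraries (SD, n = 3; log2 fold change 1.06 ± 0.03). The Dishevelled gene DVL1 (1.19 ± 0.04), the PDZ protein gene PICK1 (1.53 ± 0.13) and STAT3 (0.53 ± 0.03) rose too.

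Receptor-side adaptors and enzymes moved both ways, 10 of 23 tested up and 11 down. That is 91.3% past the threshold, against 85.9% of all genes tested, of which 43.4% were higher and 42.5% lower. GRB10, an adaptor known to bind EPHB1, had 103 ± 2.58 CPM in libraries labelled knockdown and 16.8 ± 1.25 CPM in scramble libraries (SD, n = 3; log2 fold change 2.56 ± 0.06). INPPL1, the phosphatase SHIP2 that binds EPHA2, rose by less (0.77 ± 0.04). PTPN11, the phosphatase SHP2, and PIK3R1, a regulatory subunit of PI3-kinase, fell (-0.82 ± 0.03 and -1.49 ± 0.06).

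**Figure D4:**
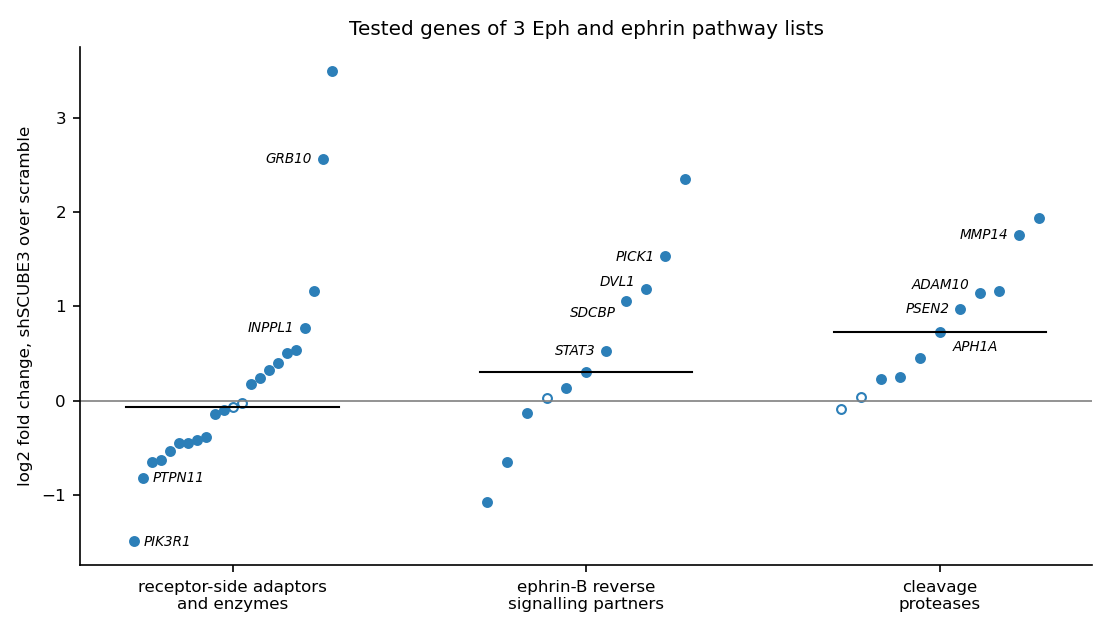
Log2 fold change of shSCUBE3 over scramble libraries for the 45 tested genes of 3 pathway lists; filled points passed an edgeR adjusted p of 0.05, open points did not, and black lines are list medians (-0.06, 0.31 and 0.73). The 4 genes with the smallest adjusted p in each list are named.

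Because EPHB4 and EFNB2 are also vessel genes, markers of endothelial cells were read beside them. Of 10 markers, 5 were tested. Summed CPM of the 10 was 196 to 204 in libraries labelled knockdown and 259 to 276 in scramble libraries. CLDN5 had 0 reads in all 6 libraries, ERG had 0 in libraries labelled knockdown and 1 in scramble libraries, and CDH5, TEK and VWF had 4, 3 and 6 reads over the libraries labelled knockdown and 6, 4 and 4 over the scramble libraries. These 5 of the 10 were at or near 0 in both groups, and the other 5 were read in both.

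PECAM1 (log2 fold change 1.39 ± 0.23), KDR (0.88 ± 0.13) and ESAM (0.55 ± 0.04) were higher in libraries labelled knockdown. ROBO4 (-0.99 ± 0.05) and TIE1 (-7.59 ± 0.11) were lower. All 5 passed the edgeR threshold, beside 85.9% of all genes tested. TIE1 had 0.417 CPM in libraries labelled knockdown and 78.9 CPM in scramble libraries. The part of these 5 markers in the EPHB4 and EFNB2 values was not tested. Leukocyte markers PTPRC, CD3E, ITGAM and SPI1 had at most 11 reads over a group, while CD14, CSF1R and CD68 were tested. CD14 had 6.31 CPM in libraries labelled knockdown and 0.230 CPM in scramble libraries (log2 fold change 4.67 ± 0.25), and CSF1R had 5.38 and 0.291 CPM (4.12 ± 0.25), both higher. CD68 was lower, at 158 and 281 CPM (-0.88 ± 0.03), and makes up most of the sum of the 8 markers, which was 167 to 177 CPM in libraries labelled knockdown and 278 to 286 CPM in scramble libraries. Fibroblast markers summed to 20.1 to 22.4 CPM in libraries labelled knockdown and 4.99 to 6.09 CPM in scramble libraries. Of the 8, 3 were tested, PDGFRB, LUM and COL1A1, and all 3 were higher, where 85.9% of all genes tested passed in either direction. LUM had 47 reads over the libraries labelled knockdown and 0 over the scramble libraries, so it entered the test through the group where it is high. PDGFRA, FAP and THY1 had 5, 3 and 4 reads over the libraries labelled knockdown and 3, 1 and 0 over the scramble libraries. PDPN had 0 and 5 reads. DCN had 0 reads in all 6 libraries.

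Genes with the most similar profile were sought for the members with the largest rise and fall, as the smallest Euclidean distance of centred log2 CPM (scaled by TMM, with 0.5 reads added) over the 6 libraries. For EPHB3 these were GBP2 at a distance of 0.281, SLFN13 at 0.303 and RELB at 0.341. For EFNB1 they were MT1X at 0.0666, SYBU at 0.0848 and VEPH1 at 0.0954. With 2 groups that differ in most genes, such likeness mainly reflects a fold change of the same size, as in GBP2 (log2 fold change 2.83 ± 0.07) and MT1X (-1.42 ± 0.07). MT1X belongs to the metallothionein family of near-identical copies, so its own value is uncertain.

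How uniquely the reads could be placed differed among the 9 genes. Of all runs of 50 bases, the read length, in the annotated coding transcripts of EPHB3, EFNA1, EFNA5 and EFNB1, 0% also occurred in a transcript of another gene, and the figure was 0.255% for EPHA2, 0.245% for EPHB2 and 0.478% for EPHB4. EPHA2 and EPHB2 shared 10 such runs with each other. For EFNB2 the share was 21.6% and for EPHA4 4.34%, in both cases because of an antisense gene annotated on the opposite strand (AL138689.2 and AC079834.2, symbols not among those counted). The library kit keeps strand, but which strand was counted is not given in the sources used here. Reads of these antisense genes may therefore be included in the EFNB2 and EPHA4 values.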

How the data were processed

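Polyadenylated RNA was sequenced as single reads of 50 bases from a stranded mRNA kit, per the labels' protocols. Per the submitters' processing notes, reads were handled with bcl2fastq, TopHat2 2.0.8b and HTSeq on hg19. Annotation and counting settings were not stated. The authors deposited raw read counts per gene symbol, not normalized; 5 summary lines for reads in no gene entered neither library sizes nor tests. Of all reads, 29.3 to 29.6% in libraries labelled knockdown and 34.0 to 34.2% in scramble libraries aligned to several places, and 11 to 11.1% and 14.4 to 15.0% fell in no gene.

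Libraries were grouped by title. Genes kept by filterByExpr were scaled by TMM (factors 0.980 to 1.02) and tested with edgeR 4.0.16 (R 4.3.3; quasi-likelihood F test, robust, two-sided, one term for group), adjusted by Benjamini-Hochberg over 13606 genes and called at a threshold of 0.05. Standard errors were taken as the log2 fold change over the square root of F. CPM are counts per 1000000 reads in genes, without TMM. Where a group had no reads, the fold was taken with 3 reads over that group. The reads of the other group were taken as counted, so their counting error is not covered. Ratios with few reads in a group have 95% exact intervals. These intervals cover counting error only, since reads carry no molecular identifiers. Exon and coding lengths and shared runs came from GENCODE 29 and promoters from RefSeq GRCh38.p14, used for lengths and sequence only, since the count tables rest on hg19. The method was checked on simulated data in which few genes were changed. In the data described here 85.9% of genes tested passed, so that check does not cover this setting. Within each group, pairs of libraries differed beyond counting noise (chi-square over its degrees of freedom, 1.67 to 3.45) and all were kept.

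The 9 genes and all lists were chosen with earlier results of these data known. Named genes are the 9, SCUBE3, all other family genes, the 4 smallest adjusted p-values of each pathway list, the marker lists, and the 3 nearest profiles for 2 members; some list results are not reported here, and list genes named for not passing the test were chosen after their values were seen. Other settings tried were scaling by DESeq2's size factors, the upper quartile or library totals, no filter, 1 CPM in 3 libraries, DESeq2 1.42.0, limma-voom (limma 3.58.1), glmTreat against 1.5-fold, a threshold of 0.01, a replicate block, and each library left out.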

Additional observations from a re-analysis of the deposited data

How the results depend on the processing

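Under 16 alternatives, EPHB2, EPHB3, EPHB4, EFNB1 and EFNB2 kept their direction and stayed past the threshold, with log2 fold changes of 0.99 to 1.09, 2.70 to 2.95, 1.91 to 2.0, -1.44 to -1.34 and 0.81 to 0.89, and EPHA4 never passed (-0.18 to 0, lowest without scramble replicate 2 at an adjusted p of 0.0962). EFNA1 lost its call at a threshold of 0.01, with glmTreat and without scramble replicate 1. Tested against a 1.5-fold change with edgeR's glmTreat, 6251 genes passed, 3307 higher and 2944 lower. Of the 9 genes 5 passed, 4 higher and 1 lower, with EPHA2, EFNA1 and EFNA5 lost. By list, 7 of 23 tested receptor-side genes, 5 of 11 ephrin-B partners and 6 of 11 cleavage proteases passed. Among all genes tested the share was 45.9%. By its construction that test asks for a larger change. Leaving out 1 library gave 11450 to 11630 genes, 7 to 8 of the 9, and SCUBE3 estimates from -0.05 (without scramble replicate 3) to 0.08. Library totals moved log2 fold changes by a median of 0.05.

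Deviations of same-numbered libraries correlated by 6.66e-04 to 0.0171, and 1 of 3 libraries labelled knockdown correlated best with its own number, so the numbers were not taken as pairs. With the replicate number as a block 11706 genes passed, and 8 of the 9 genes, 5 higher and 3 lower. At these depths EPHB3, EPHA5, EPHA6, EPHA7, EPHA10, EPHB6 and EFNB3 rest on fewer than 100 reads in the weaker group.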
